A study of Mus musculus with 4 samples.

Results

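Rims1, Rims2, Unc13a, Unc13b, Unc13c, Bsn, Pclo, Erc1 and Erc2 code for proteins of the presynaptic active zone, and their RNA was followed here across cell classes of the mouse hypothalamus in single-nucleus data. They were taken by symbol, with a single row per symbol, and are 9 of the 32285 gene rows in the count matrices. The study profiled frozen whole hypothalamus of mice about 18 months old. Its samples were 2 labelled Transplanted, from mice that received hypothalamic stem cells made from human pluripotent stem cells, and 2 labelled Control. Strain, sex and genotype are not in the labels, nor is what the Control mice received, and it is not stated whether the titles that join a pair of animal codes mark pooled animals.

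The matrices under the 2 labels held the same nuclei. Transplanted replicate 1 and Control replicate 1 had 3997 barcodes in common (99.4% and 99.7% of theirs), and the second replicates had 2144 (99.7% of either), while all other pairs had 4. The counts of shared barcodes were not identical under the 2 labels. For first and second replicates, profiles correlated at a median r of 0.89 and 0.88 over 400 nuclei each. Of the entries of the 9 genes, 78.1% and 76.6% were equal. With the same nuclei under both labels, an effect of transplantation cannot be estimated. The levels below come from the Control matrices, called library A (replicate 1, 4008 nuclei, 8779880 unique molecular identifiers or UMIs, each a counted RNA molecule) and library B (replicate 2, 2150 nuclei, 4924563 UMIs). Over all nuclei, levels of the 9 genes in UMIs per 1000000 (CPM) under the Transplanted label lay -2.22% to 7.69% from those under Control. The widest gap was that of Unc13b in the second replicates, at 84.9 and 78.8 CPM. The labels do not say that the libraries come from separate animals. All p-values therefore rest on these 2 libraries alone, whose spread may be technical, and the fits share information on spread across genes.

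Nuclei were clustered without the 9 genes and without 46 partner genes of vesicle release, so that the genes described did not define the classes. Of 19 clusters, 13 were neuron-like, and 1 each was like oligodendrocyte precursors (OPCs), astrocytes, oligodendrocytes, tanycytes and microglia. Libraries A and B held 134 and 72 OPC nuclei, 2976 and 1441 neuron nuclei, and 847 and 590 nuclei of the other 4 glial classes, which are called other glia when pooled. All 12 OPC markers, Pdgfra and Cspg4 among them, were highest in the OPC cluster. The tanycyte cluster also carried vascular, ependymal and haemoglobin RNA. A last cluster of 46 and 22 nuclei, led by oligodendrocyte genes but with all 12 neuron markers raised, stayed outside the classes. The median depth was 1031 and 1196 UMIs in OPCs, 2256 and 2630.0 in neurons and 707 and 736 in other glia.

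The active zone is the stretch of presynaptic membrane where synaptic vesicles dock and fuse when calcium enters a nerve ending. RIM proteins (Rims genes) bind vesicle-bound Rab3, calcium channels and Munc13, and the Munc13 proteins (Unc13 genes) make docked vesicles ready for release by opening syntaxin. Bassoon (Bsn) and Piccolo (Pclo) are very large scaffolds that hold vesicles near the membrane, and the ELKS proteins (Erc genes) tie the scaffolds together. Oligodendrocyte precursors are dividing glia that give rise to myelinating oligodendrocytes, and they receive synaptic contacts from neurons.

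The promoters of Rims1 and Unc13c are shown because these were the members with the widest fitted difference between OPCs and other glia. They are RefSeq sequences of build GRCm38.p6, from 250 bases before to 50 bases after a single annotated gene start, written 5′ to 3′ on the gene's strand, with each CG dinucleotide in capitals. The Rims1 window lies on the minus strand at chr1:22806109-22806408, and the Unc13c window on the minus strand at chr9:73968988-73969287.
Rims1: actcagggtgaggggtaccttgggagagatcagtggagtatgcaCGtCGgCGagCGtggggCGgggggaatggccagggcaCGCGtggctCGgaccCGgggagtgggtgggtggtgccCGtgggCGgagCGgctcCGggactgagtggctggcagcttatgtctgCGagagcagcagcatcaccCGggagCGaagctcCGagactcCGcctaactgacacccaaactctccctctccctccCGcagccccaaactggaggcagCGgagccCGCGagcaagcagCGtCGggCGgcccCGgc
Unc13c: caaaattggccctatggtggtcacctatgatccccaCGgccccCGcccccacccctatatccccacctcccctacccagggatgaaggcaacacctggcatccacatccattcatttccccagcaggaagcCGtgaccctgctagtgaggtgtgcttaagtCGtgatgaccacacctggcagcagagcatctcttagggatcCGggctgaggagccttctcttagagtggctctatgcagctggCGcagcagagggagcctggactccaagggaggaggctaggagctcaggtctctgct
The Rims1 window held 26 CG dinucleotides, and 16.9% of the 32851 promoters in the same table held as many or more. The Unc13c window held 6, against a median of 7 over all promoters. Of the 9 genes, 8 had a promoter in the table, and the other 7 of these held 20 to 46, so that Unc13c held the fewest. CG was counted on 1 strand, since it reads the same on both, and other annotated starts of these genes were not looked at.

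Active zone RNA was not limited to neurons. OPCs carried Rims1, Rims2, Unc13c, Pclo and Erc2 at 301 to 855 CPM in both libraries, and Unc13c was higher in OPCs than in neurons. Tested on UMIs summed per class and library with edgeR's quasi-likelihood test (Benjamini-Hochberg over 9617 genes, threshold 0.05), 1 of the 9 genes was higher in OPCs than in neurons (Unc13c), 6 were lower (Rims2, Unc13a, Bsn, Pclo, Erc1 and Erc2) and 2 were not called (Rims1 and Unc13b). Of all genes tested in that comparison, 24.9% were called, 11.7% as higher and 13.2% as lower. The median log2 difference was -0.96 over the 9 genes and -0.15 over all genes. Against other glia, 7 of 9 were higher in OPCs, all but Unc13a and Erc1, where 10.7% of all genes were higher, and the medians were 1.84 and -0.16. Neurons exceeded other glia for 9 of 9, where 26.7% of all genes were higher, with medians of 2.98 and -0.03. These 3 comparisons share their class sums and are not independent of each other.

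**Figure D1:**
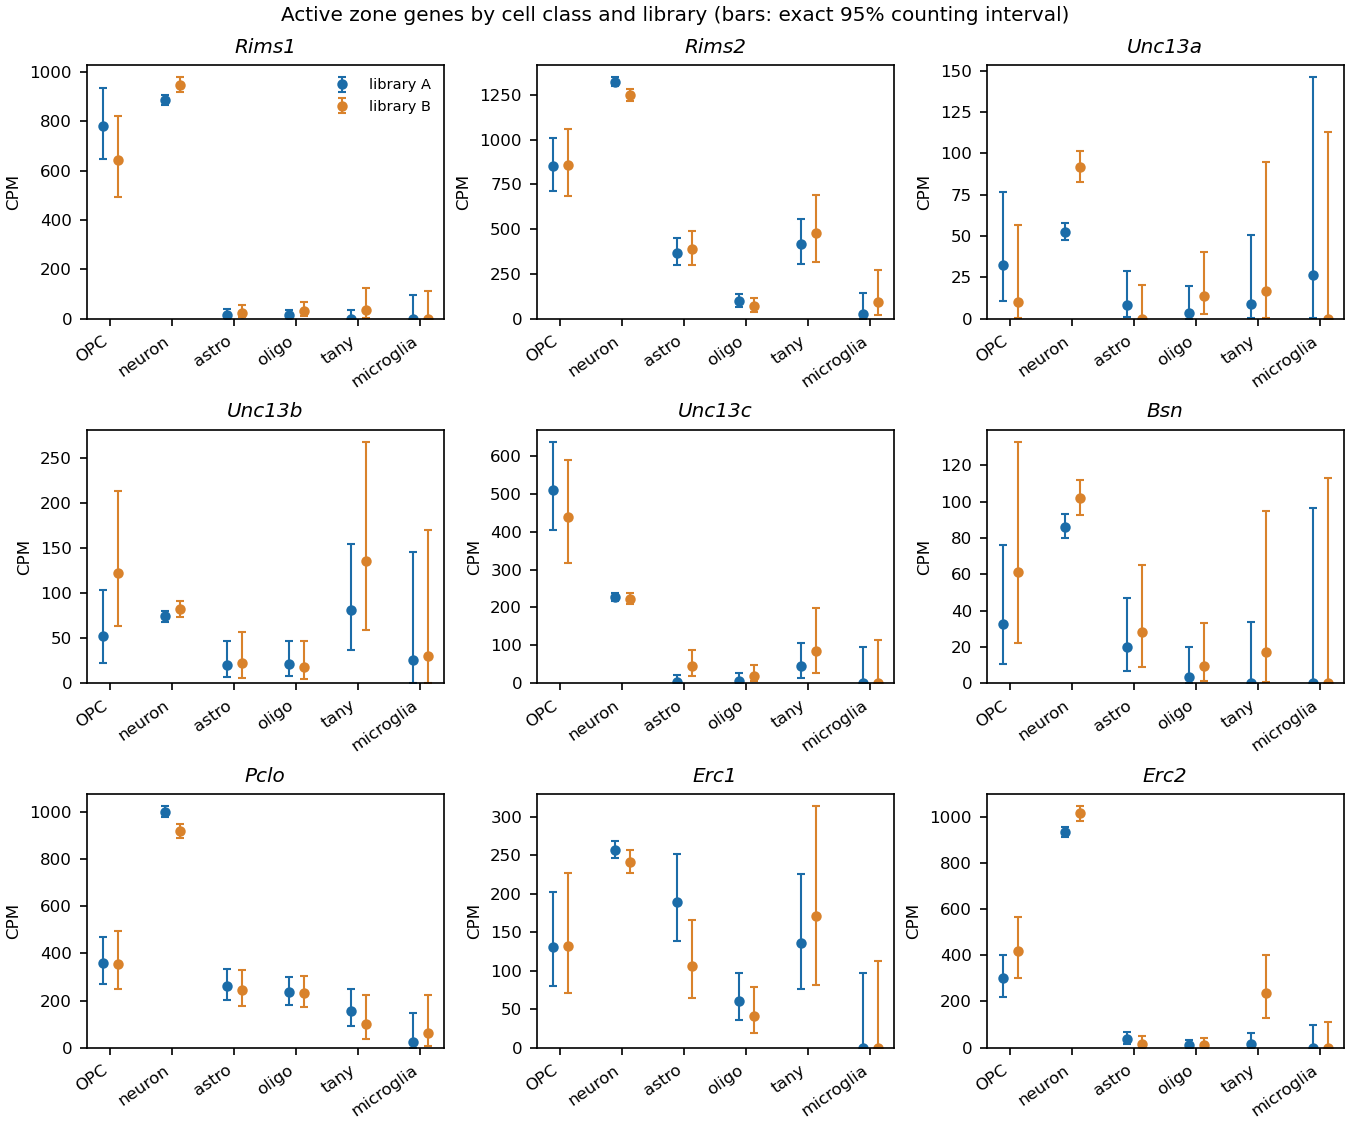
RNA level in CPM (linear axis from 0, own scale per gene) of the 9 active zone genes in oligodendrocyte precursors (OPC), neurons, astrocytes, oligodendrocytes, tanycytes and microglia; points are libraries A and B, and bars are exact 95% Poisson intervals for counting error only. Unc13c stands at 511 and 438 CPM in OPCs and at 227 and 222 CPM in neurons, and Rims1 is near 0 in the 4 other glial classes.

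Both RIM genes were found in most OPC nuclei. Rims1 (ENSMUSG00000041670), the scaffold that links vesicles to calcium channels, had 779 and 641 CPM in OPCs of libraries A and B, 885 and 947 CPM in neurons and 11.8 and 26.7 CPM in other glia. Its OPC values lay below both neuron values and far above other glia, with no overlap between the 3 groups. The OPC value differed from neurons by 1.28-fold in the fit, with neurons higher, and this did not pass (log2 difference -0.36, SE 0.14, edgeR adjusted p = 0.0764, 95% interval -0.64 to -0.08), whereas OPCs exceeded other glia 40.3-fold (log2 difference 5.33, SE 0.27, edgeR adjusted p = 1.85e-12). Without replicate 1 or 2, the log2 difference from other glia was 4.55 or 6.05. Rims1 was seen in 53.0% and 56.9% of OPC nuclei, 78.1% and 83.6% of neurons and 0.945% and 2.03% of other glia. With every nucleus thinned to 500 UMIs the shares were 24.6% and 25%, 34.1% and 37.4% and 0.236% and 1.36%, so the order of the classes held at equal depth. Rims1 passed as lower in OPCs than in neurons on thinned nuclei (log2 difference -0.87, edgeR adjusted p = 3.13e-04), without the low-count filter (-0.60, 2.42e-04) and with only OPC nuclei that held no neuron marker UMI (-1.18, 4.05e-04). These values are to be read against the median of all genes. It lay at -0.32 on thinned nuclei and -0.89 with the OPC nuclei free of neuron markers, against -0.15 in the main fit.

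Rims2 (ENSMUSG00000037386), the second long RIM gene, had 851 and 855 CPM in OPCs, 1321 and 1249.9 CPM in neurons and 245 and 236 CPM in other glia. It was lower in OPCs than in neurons (log2 difference -0.62, SE 0.12, edgeR adjusted p = 4.98e-04) and higher in OPCs than in other glia (log2 difference 1.84, SE 0.15, edgeR adjusted p = 3.90e-09), and the call against neurons was lost without the library as a block (adjusted p = 0.0875). Rims2 was also present in other glial classes, where Rims1 was near 0. It stood at 418 and 477 CPM in tanycytes and 369 and 386 CPM in astrocytes, and at 96.6 and 69.2 CPM in oligodendrocytes. Microglia had 26.2 and 92.1 CPM from 1 and 3 UMIs, where 3 UMIs stand for 78.7 and 92.1 CPM. They had 0 UMIs of Rims1 in both libraries, so neither gene's level could be told in microglia. Tanycytes lay above astrocytes in both libraries, with overlapping counting intervals, and oligodendrocytes and microglia overlapped. In OPCs, 53.7% and 62.5% of nuclei held a UMI of Rims2.

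Among the Munc13 genes, Unc13c (ENSMUSG00000062151), known best from cerebellar granule cells, was the member that OPCs carried above neurons. It had 511 and 438 CPM in OPCs, 227 and 222 CPM in neurons and 11.8 and 34.9 CPM in other glia. The 3 groups did not overlap, and OPCs stood 2.11-fold above neurons (log2 difference 1.08, SE 0.19, edgeR adjusted p = 2.04e-04) and 22.5-fold above other glia (log2 difference 4.49, SE 0.31, edgeR adjusted p = 3.05e-10). The call against neurons was lost with only OPC nuclei that held no neuron marker UMI (log2 difference 0.16, edgeR adjusted p = 0.856). In that fit the median of all genes lay at -0.89, against -0.15 in the main fit. The OPC nuclei in it had 500.5 and 290.4 CPM of Unc13c, from 12 and 6 UMIs. Without replicate 1 or 2, the log2 difference from other glia was 3.63 or 5.44. Unc13c was seen in 37.3% and 43.1% of OPC nuclei, in 21.6% and 24.5% of neurons and in 0.826% and 2.71% of other glia, and in 16.4% and 18.1%, 8.60% and 8.95% and 0.590% and 1.36% after thinning to 500 UMIs. OPC nuclei therefore held Unc13c more often than neuron nuclei at their own depth and at equal depth. Microglia gave 0 UMIs in both libraries, where 3 UMIs would stand for 78.7 and 92.1 CPM, and tanycytes had 45.5 and 85.2 CPM.

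Unc13a (ENSMUSG00000034799), the main priming factor of central glutamatergic synapses, was low in OPCs, at 32.7 and 10.2 CPM from 5 and 1 UMIs, against 52.6 and 92.0 CPM in neurons and 7.39 and 8.22 CPM in other glia. It passed as lower in OPCs than in neurons (log2 difference -1.52, SE 0.52, edgeR adjusted p = 0.0364), on 6 OPC UMIs in all, and the call was lost in DESeq2 (adjusted p = 0.193), without the library as a block (0.0817), on thinned nuclei (0.207) and on OPC nuclei with no neuron marker UMI (0.194). Without replicate 1 or 2 its log2 difference was -3.20 or -0.86. Against other glia it was not called (log2 difference 1.66, SE 0.84, edgeR adjusted p = 0.182). Unc13b (ENSMUSG00000028456), a second priming factor also found outside neurons, had 52.4 and 122 CPM in OPCs, 74.3 and 82.4 CPM in neurons and 31.0 and 34.9 CPM in other glia. OPCs and neurons overlapped and did not differ detectably (log2 difference 0.02, SE 0.34, edgeR adjusted p = 0.972, 95% interval -0.65 to 0.70), but with only OPC nuclei that held no neuron marker UMI, and 0 UMIs of Unc13b, it passed as lower in OPCs (edgeR adjusted p = 0.0244). OPCs exceeded other glia (log2 difference 1.31, SE 0.44, edgeR adjusted p = 0.0333), a call lost in DESeq2 (adjusted p = 0.0820), without the block (0.0654), on thinned nuclei (0.716) and on OPC nuclei with no neuron marker UMI, which gave 0 UMIs of it. The highest mean of Unc13b was that of tanycytes, at 81.8 and 136 CPM from 9 and 8 UMIs, which overlapped OPCs. Astrocytes had 20.1 and 22.4 CPM and oligodendrocytes 21.5 and 18.5 CPM.

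Both giant scaffold genes were lower in OPCs than in neurons. Bsn (ENSMUSG00000032589), coding for Bassoon, had 32.7 and 61.1 CPM in OPCs from 5 and 6 UMIs, 86.2 and 102 CPM in neurons and 8.87 and 16.4 CPM in other glia. Astrocytes had 20.1 and 28.0 CPM from 5 and 5 UMIs. Its groups did not overlap, but it rested on few OPC UMIs. It passed as lower in OPCs than in neurons (log2 difference -1.09, SE 0.39, edgeR adjusted p = 0.0450) and as higher than in other glia (log2 difference 1.89, SE 0.61, edgeR adjusted p = 0.0276), but each call was lost under several settings. The first was lost in DESeq2 (adjusted p = 0.209), without the block (0.120), on thinned nuclei (0.0843), on nuclei with at least 1000 UMIs (0.178) and on OPC nuclei with no neuron marker UMI (0.544). The second was lost on thinned nuclei (0.333), on nuclei with at least 1000 UMIs (0.0818) and on OPC nuclei with no neuron marker UMI (0.161). Pclo (ENSMUSG00000061601), coding for Piccolo, had 360.2 and 356 CPM in OPCs, 1002 and 919 CPM in neurons and 220.2 and 209.7 CPM in other glia. Neurons were highest in both libraries, and OPCs stood at 0.366 of the neuron level in the fit (log2 difference -1.45, SE 0.15, edgeR adjusted p = 1.56e-07). Astrocytes followed with 261 and 246 CPM, oligodendrocytes with 236 and 231 CPM and tanycytes with 155 and 102 CPM. The distance of OPCs from other glia was small (log2 difference 0.75, SE 0.19, edgeR adjusted p = 0.00509), and the call was lost without the block (adjusted p = 0.0610), on thinned nuclei (0.505) and on OPC nuclei with no neuron marker UMI (log2 difference -0.26, 0.781).

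Of the ELKS genes, Erc2 was scarce in most other glia and Erc1 was not. Erc2 (ENSMUSG00000040640), the ELKS gene known mainly from brain, had 301 and 417 CPM in OPCs, 932 and 1013 CPM in neurons and 20.7 and 41.1 CPM in other glia. It was lower in OPCs than in neurons (log2 difference -1.49, SE 0.17, edgeR adjusted p = 4.98e-07) and higher than in other glia (log2 difference 3.59, SE 0.29, edgeR adjusted p = 3.90e-09), with no overlap of groups. The value of tanycytes rested on 1 library, with 2 and 14 UMIs, and those of library B lay in 8.93% of 56 nuclei. Erc1 (ENSMUSG00000030172), a gene active in many tissues, had 131 and 132 CPM in OPCs, 257 and 242 CPM in neurons and 117 and 78.1 CPM in other glia. It was lower in OPCs than in neurons (log2 difference -0.96, SE 0.24, edgeR adjusted p = 0.00470), a call lost without the block (adjusted p = 0.0593), and OPCs were not called against other glia (log2 difference 0.41, SE 0.30, edgeR adjusted p = 0.376). Astrocytes had 189 and 106 CPM and tanycytes 136 and 170.4 CPM, so that astrocytes overlapped both tanycytes and OPCs, while oligodendrocytes had 60.8 and 41.5 CPM. Microglia gave 0 UMIs of Erc1 in both libraries, where 3 UMIs would stand for 78.7 and 92.1 CPM.

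**Figure D2:**
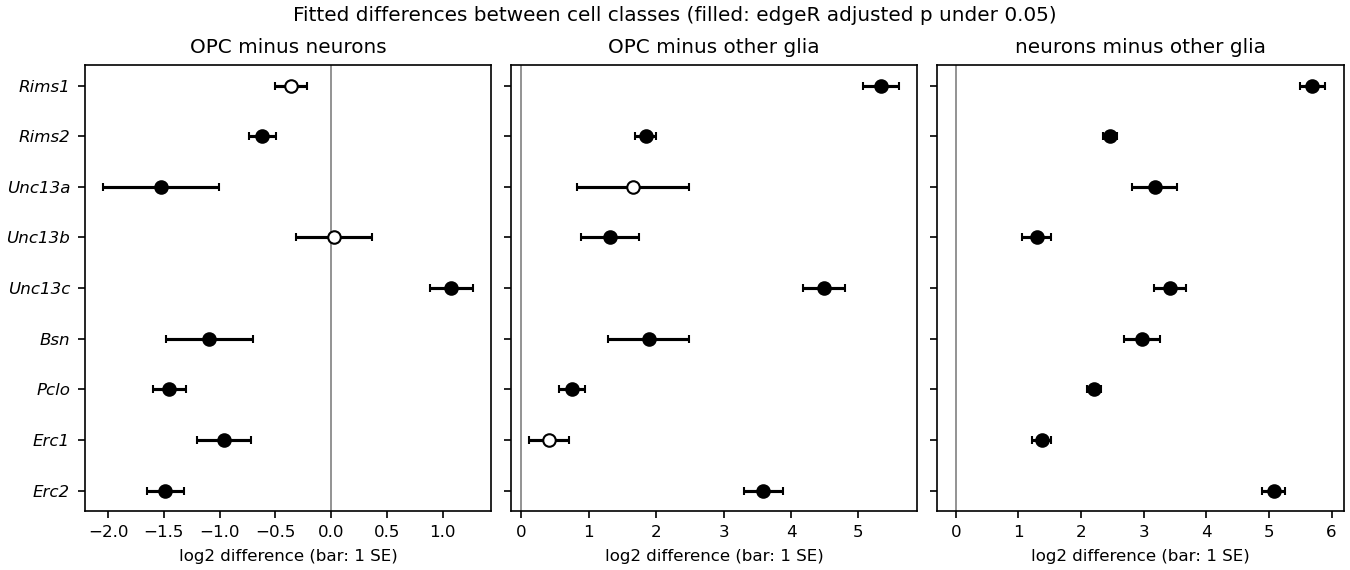
Fitted log2 differences (x axis) of the 9 genes for OPCs minus neurons, OPCs minus other glia and neurons minus other glia; bars are 1 standard error and filled points passed edgeR's test at an adjusted p of 0.05. In the first panel Unc13c alone is filled to the right of 0, at 1.08, and Rims1 and Unc13b are open.

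Neurons exceeded other glia most for Rims1, 51.8-fold (log2 difference 5.69, SE 0.20, edgeR adjusted p = 9.38e-16), and Erc2, 33.8-fold (log2 difference 5.08, SE 0.18, edgeR adjusted p = 8.66e-16). The narrowest differences were those of Unc13b, 2.44-fold (log2 difference 1.29, SE 0.24, edgeR adjusted p = 8.45e-05), and Erc1, 2.59-fold (log2 difference 1.37, SE 0.15, edgeR adjusted p = 7.76e-08). The other 5 genes lay between, at log2 differences of 2.20 for Pclo to 3.42 for Unc13c. Without replicate 1 the log2 difference was 5.30 for Rims1, 4.81 for Erc2 and 2.85 for Unc13c. It was 6.42, 5.73 and 4.46 for these genes without replicate 2. All 9 were called under each of the 12 to 14 alternatives in which they could be tested.

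As a share of the level in neurons, members and neuron markers ranged widely in OPCs. OPCs had 88.1% and 67.7% of the neuron level of Rims1, 64.4% and 68.4% of Rims2, 225% and 197% of Unc13c, and 32.3% and 41.2% of Erc2. The 12 neuron markers had a median of 7.65% and 7.53% of their neuron level in OPCs, summed to 1657 and 1120 CPM in OPCs and to 26076 and 16927 CPM in neurons, and 1 and 2 of them were at 0 in OPCs. Elavl4 (114% and 76.6%) and Gad1 (66.1% and 117%, from 5 and 8 UMIs) stood far above that median, and Nefm had 0 and 1 UMIs. In oligodendrocytes the same markers had a median of 8.0% and 2.48%, where Rims1 had 1.62% and 3.41% and Unc13c 3.15% and 8.31%. Elavl4, with 30 and 13 UMIs in OPCs, also counts as a neuron marker where OPC nuclei without marker UMIs are taken. The part of neuron RNA in the OPC values was not tested.

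OPC nuclei without a UMI of any neuron marker, 27 in library A and 18 in library B, gave few UMIs of most members. Their median depth was 782 and 1064.5 UMIs, against 1031 and 1196 in all OPC nuclei. Rims1 stood there at 626 and 678 CPM from 15 and 14 UMIs, Rims2 at 834 and 1016 CPM from 20 and 21 UMIs, and Unc13c at 500.5 and 290.4 CPM from 12 and 6 UMIs. Erc2 had 6 and 7 UMIs, Pclo 4 and 8 UMIs, Bsn 1 and 3 UMIs and Erc1 1 and 1 UMIs. Unc13a had 1 and 0 UMIs, and Unc13b had 0 in both libraries. In OPC nuclei with a UMI of Pdgfra, the growth factor receptor that marks OPCs, Rims1 had 821 and 690.1 CPM and Unc13c 394 and 422 CPM. The 59 and 19 OPC nuclei without a Pdgfra UMI had 721 and 451 CPM of Rims1. They had 674 and 501 CPM of Unc13c, from 43 and 10 UMIs, above the nuclei with Pdgfra in both libraries. In the fit against neurons with the nuclei free of neuron markers alone, the median of all genes lay at -0.89. OPC nuclei with Rims1 or Unc13c made up 67.2% and 77.8% of the class, and 31 and 16 nuclei held both.

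**Figure D3:**
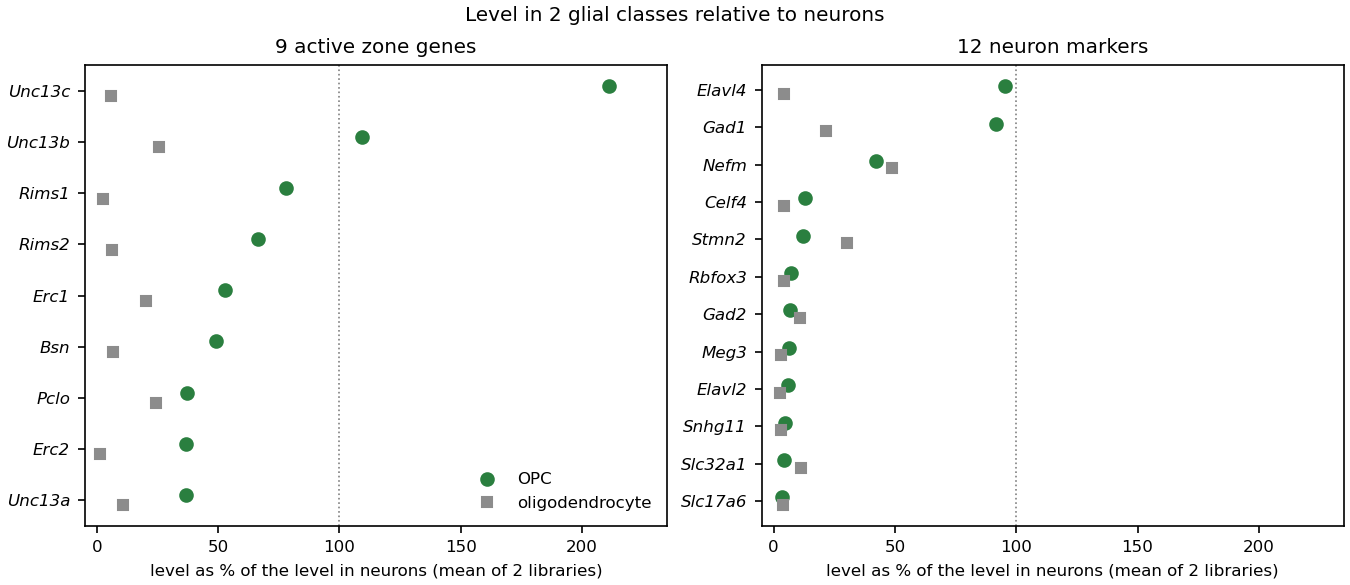
Level in OPCs (circles) and oligodendrocytes (squares) as a percentage of the level in neurons, mean of 2 libraries, for the 9 active zone genes (left) and the 12 neuron markers (right); the dotted line is 100%. Most neuron markers lie near their median of 7.65% and 7.53% in OPCs, with Elavl4, Gad1 and Nefm above, and the 9 active zone genes lie to the right of that median.

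The partner genes of vesicle release were tested in the same fits. Of 46 genes, 39 could be tested, and Rims4, Unc13d, Stx1a, Cplx1, Syt2, Doc2a and Doc2b could not. In OPCs against neurons 2 were higher, 20 lower and 17 not called, where 11.7% of all genes were higher and 13.2% lower, with a median log2 difference of -1.01. Cask, a scaffold kinase that binds neurexins, had 629 and 631 CPM in OPCs and 222 and 228 CPM in neurons (log2 difference 1.46, SE 0.15, edgeR adjusted p = 1.34e-07), and Syn2, a synapsin, had 498 and 448 CPM in OPCs and 359.9 and 316 CPM in neurons (log2 difference 0.46, SE 0.15, edgeR adjusted p = 0.0317). Among those that were lower, Syt1, the calcium sensor of fast release, had 72.0 and 30.5 CPM in OPCs and 1943 and 1823 CPM in neurons (log2 difference -5.11, SE 0.22, edgeR adjusted p = 1.68e-13). Cacna1b, the pore of N-type calcium channels, had 19.6 and 10.2 CPM in OPCs and 332 and 363 CPM in neurons, and the SNARE gene Snap25 had 268 and 224 CPM in OPCs and 737 and 592 CPM in neurons. In OPCs, Syt1 was thus at 3.71% and 1.68% of its neuron level and Cacna1b at 5.92% and 2.80%.

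Against other glia, 12 partner genes were higher in OPCs and 1 was lower, where 10.7% of all genes were higher and 12% lower, with a median log2 difference of 0.56. Ppfia2, a liprin that binds RIM, had 727 and 631 CPM in OPCs, 752 and 678 CPM in neurons and 84.2 and 65.8 CPM in other glia (log2 difference 3.19, SE 0.19, edgeR adjusted p = 2.31e-11). Cask, Cacna2d1, an auxiliary calcium channel subunit, and Syn2 came next, and Git2, a scaffold that regulates Arf proteins, was the lower gene, at 26.2 and 30.5 CPM in OPCs and 62.1 and 98.7 CPM in other glia. Single glial classes came near OPCs for Cask and Syn2. Microglia had 189% and 282% of the neuron level of Cask, and OPCs 283% and 276%. Astrocytes had 120% and 112% of that of Syn2, and OPCs 138% and 142%. The remaining glial classes lay lower for either gene. In neurons against other glia 32 partner genes were higher and 4 lower (Vamp1, Vamp2, Git1 and Git2), where 26.7% of all genes were higher and 29.3% lower, with a median of 1.81.

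Within neurons the members differed in how evenly they were spread over the 13 clusters, which are named here by leading genes that took no part in the choice of members. Rims1 had 1736 and 1835 CPM in cluster 18 (Tcf7l2, Ntng1), its highest, and 477 and 447 CPM in cluster 9 (Avp, Oxt), its lowest. Rims2 had the same extremes, with 1892 and 2482 CPM in cluster 18 and 1045 and 774 CPM in cluster 9. Cluster 18 held 13 and 12 nuclei and cluster 9 held 29 and 19. Pclo was highest in cluster 8 (Vipr2, Prok2), at 2282 and 1912 CPM, followed by cluster 6 (Myo5b, Col19a1) at 1505 and 1594 CPM, and lowest in cluster 1 (Hmcn2, Gpr149) at 773 and 659 CPM. Library A had a lower Rims2 and Pclo level in cluster 16 (965 and 702 CPM), while the other extremes were shared by the libraries. Over the 13 clusters the 2 libraries correlated at r = 0.96 for Rims1, 0.80 for Rims2 and 0.96 for Pclo.

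Unc13c varied most. It stood at 745 and 817 CPM in cluster 6 and 719 and 556 CPM in cluster 5 (Hdc, Lef1), at 322 and 272 CPM in cluster 13 (Ebf3, Tafa1) and 267 and 259 CPM in cluster 2 (Ebf2), and at 15.3 and 37.6 CPM in cluster 8. Cluster 9, with the neurohypophysial peptides Avp and Oxt, gave 0 UMIs in both libraries, where 3 UMIs would be 30.4 and 44.7 CPM. The next clusters down from cluster 6 to cluster 2 kept their order in both libraries, clusters 5 and 6 lying above OPCs and the rest below. In library B the counting interval of cluster 5 (414 to 730 CPM) overlapped that of OPCs (317 to 590 CPM). Unc13c was seen in 36.7% and 22.2% of cluster 5 nuclei, in library B 6 of 27, against 63.8% and 68.1% in cluster 6. The coefficient of variation over clusters was 108% for Unc13c, 45.9% for Unc13b, 37.5% for Pclo, 33.1% for Rims1 and 15.1% to 23.3% for Rims2, Unc13a, Bsn, Erc1 and Erc2.

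**Figure D4:**
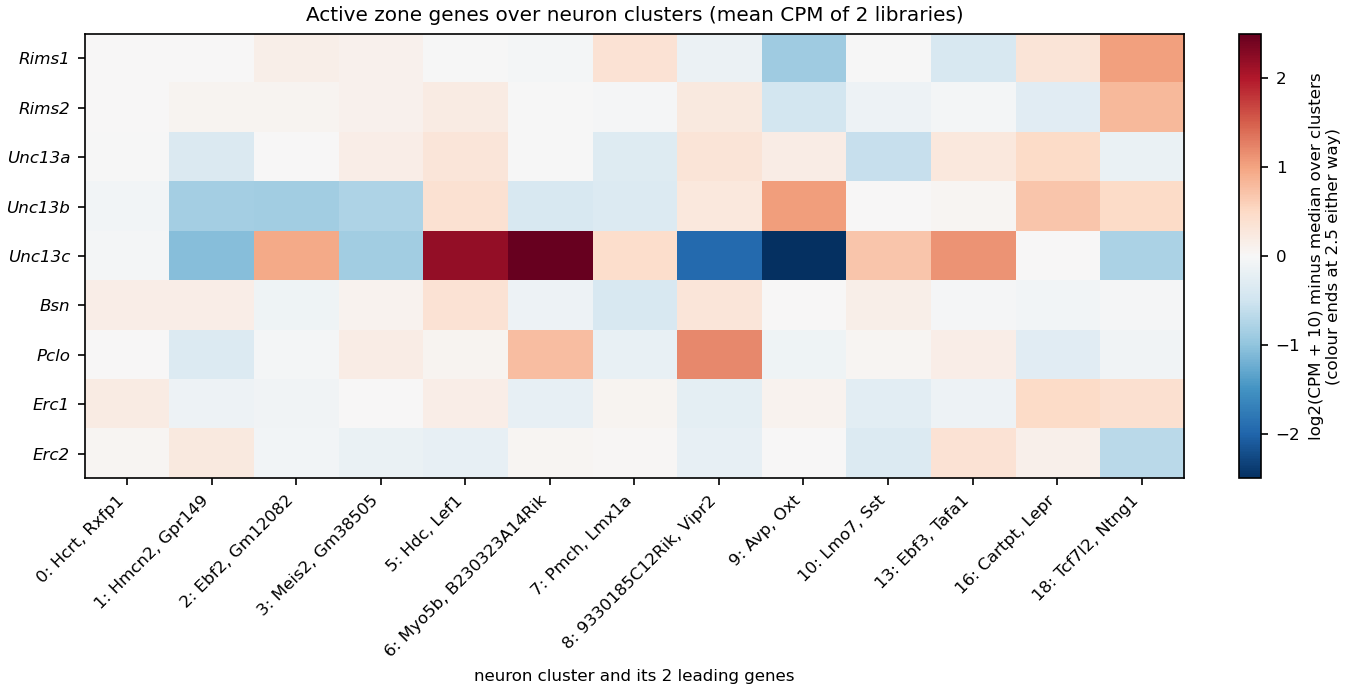
Level of the 9 genes in 13 neuron clusters, as log2(CPM + 10) of the mean of 2 libraries minus the median over clusters (red higher, blue lower); each column is a cluster with its 2 leading genes. Unc13c spans the whole colour range, from cluster 6 to cluster 9, while Bsn, Erc1 and Unc13a stay pale.

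By the mean of the libraries, Unc13b was highest where Unc13c was lowest. It peaked in the Avp and Oxt cluster, at 162 and 298 CPM from 16 and 20 UMIs, and was lowest in cluster 2, at 55.0 and 52.4 CPM. By the same mean, Erc2 was highest in cluster 13, at 1017 and 1499 CPM, and lowest in cluster 18, at 546 and 669 CPM, the cluster in which Rims1 and Rims2 peaked. In library A alone, Erc2 was higher in clusters 1 (1161 CPM) and 7 (1069 CPM) than in cluster 13. Unc13b was there lower in cluster 1 (46.0 CPM) than in cluster 2. The extremes of Unc13a (clusters 16 and 10), Bsn (5 and 7) and Erc1 (16 and 10) were not shared by the libraries, whose values correlated at only 0.10 to 0.18 over the 13 clusters. Unc13a also differed between libraries in neurons as a whole, at 52.6 CPM in A and 92.0 CPM in B, and was higher in library B in 12 of 13 clusters. The neuron marker Snhg11 differed the other way, at 19059 CPM in A and 8508 CPM in B, and the part of library quality in these gaps was not tested.

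Neurons were split by transmitter genes into glutamatergic-marked nuclei, with UMIs of Slc17a6 only (776 and 324), and GABAergic-marked nuclei, with UMIs of Slc32a1, Gad1 or Gad2 but not Slc17a6 (1087 and 569). Unc13c had 279 and 338 CPM in glutamatergic-marked and 182 and 116 CPM in GABAergic-marked neurons, with no overlap of the groups. It was the 1 member of 9 that passed (log2 difference 1.03, SE 0.10, edgeR adjusted p = 5.23e-15). Its log2 difference was 1.55 without replicate 1 and 0.65 without replicate 2, a wider gap than that SE conveys. Of the 12060 genes tested, 6.19% were called, 3.96% as higher and 2.22% as lower. The other 8 members were not called, with log2 differences of -0.11 to 0.18, and the widest of these was that of Erc2, at 1000.2 and 1006 CPM and 867 and 968 CPM (log2 difference 0.18, SE 0.08, edgeR adjusted p = 0.239). The median log2 difference over the 9 genes was -0.02. Among 45 partner genes tested, 4 were higher (Cacna2d1, Syt7, Apba1 and Stxbp5) and 3 lower (Cacna2d3, Cacna2d2 and Syt1). Cacna2d1 had 1494 and 1314 CPM in glutamatergic-marked and 337 and 245 CPM in GABAergic-marked neurons.

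The call of Unc13c was lost under several settings. It did not pass on nuclei thinned to 500 UMIs (log2 difference 0.91, edgeR adjusted p = 0.0508), without the library as a block (1.07, 0.350) or in DESeq2 (1.10, 0.589). It also did not pass without cluster 6 (0.65, 0.0582), which was left out because its Unc13c was highest, so that a smaller difference was built in. Cluster 6 was nearly all glutamatergic-marked (97.0% and 96.4% of marked nuclei), but cluster 5, next in Unc13c, held 4 glutamatergic-marked and 92 GABAergic-marked nuclei in library A, and 0 and 23 in library B. In cluster 9, without Unc13c, 14 and 11 nuclei were glutamatergic-marked and 0 GABAergic-marked. Over the 13 clusters the level of Unc13c and the glutamatergic share correlated at r = 0.03 in library A and 0.07 in library B. Inside cluster 2, which held both kinds, glutamatergic-marked nuclei had 423 and 438 CPM and GABAergic-marked nuclei 132 and 137 CPM, and inside cluster 0 (Hcrt, Rxfp1) they had 74.3 and 286 CPM and 78.4 and 57.2 CPM. The difference inside cluster 2 was thus seen in both libraries and that inside cluster 0 in library B only.

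**Figure D5:**
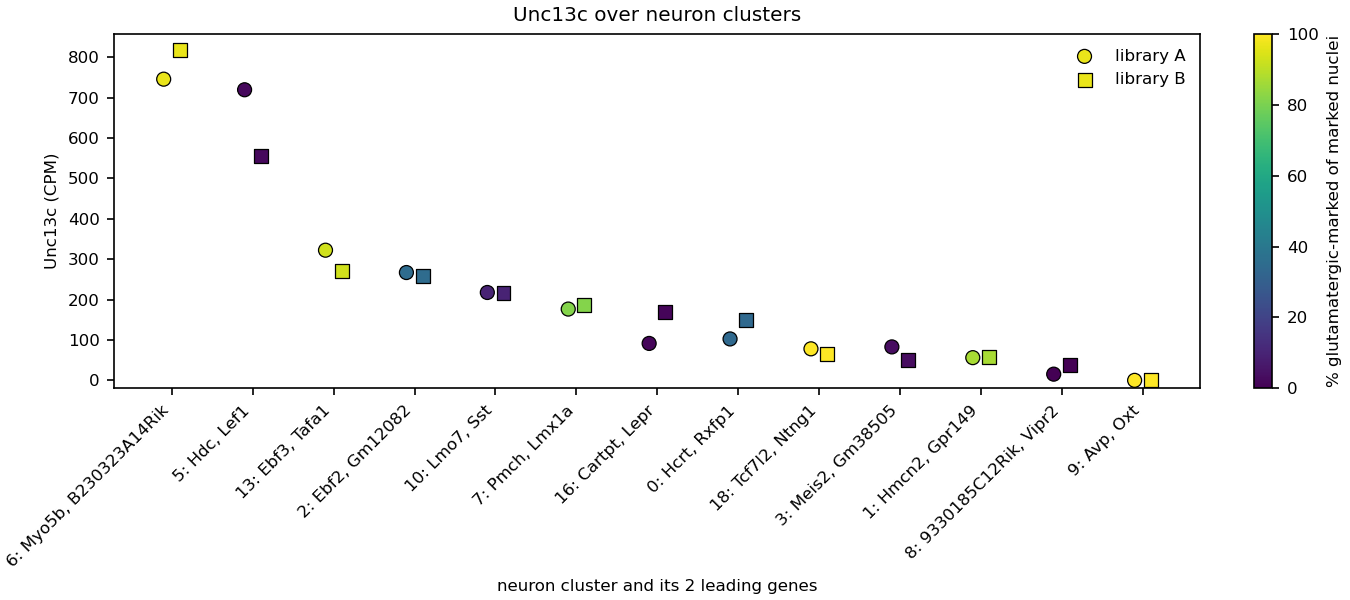
Unc13c level in CPM in each of 13 neuron clusters, ordered by level; circles are library A, squares library B, and the colour gives the share of glutamatergic-marked among transmitter-marked nuclei. The 2 highest clusters, 6 and 5, lie at opposite ends of the colour scale.

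By likeness of level over 18 groups, the 5 glial classes and the 13 neuron clusters, the genes nearest to Rims1 among 4825 with at least 500 UMIs were Nrg3os, Nrg3 and Stxbp5l (Pearson r of log2(CPM + 10) 0.99, 0.98 and 0.98), and among those nearest to Erc2 were Usp29 and Osbpl6 (0.98 each). Rims2 was nearest to Fgf14, Trerf1 and Syt14 (0.97, 0.97 and 0.96), Bsn to Unc79, 1700024B18Rik and Pdzd4 (0.97 each), and Pclo to Snap25 and Shank1 (0.96 and 0.95). Unc13a was nearest to Cacna1a, Snhg11 and Cacna1b (0.96, 0.95 and 0.94), and Erc1 to Ptprf, Orc2 and Casc4 (0.96 each). Unc13c and Unc13b had no such close match, at best 0.85 with Pcsk5 and 0.86 with Sgsm1. Among the members, the closest pairs were Bsn with Rims1, Pclo and Erc2, and Erc2 with Rims1 and Rims2 (0.94 each). Unc13b and Unc13c were the least alike (0.27). The groups share libraries and depth, so these values are descriptions.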

How the data were processed

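Nuclear RNA of 4 samples was counted with Cell Ranger 5.0.1, per the submitters' processing notes, which list GRCh38, a human build. The gene identifiers are mouse ones, and no source used here gives their build. Per the labels' protocols, nuclei came from frozen tissue and were processed with a 10x Chromium 3′ kit of version 3.1. The authors deposited unnormalized UMI counts for each gene and barcode. Counting of intronic reads is not stated, so levels are compared between groups and not between genes. The 9 genes, the partner genes, the markers and the rules were chosen with earlier results of these data known.

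Replicates were numbered in accession order. A filter of 300 or more genes and no more than 5% mitochondrial UMIs removed 0 nuclei. Scrublet in scanpy 1.11.5 called 5 doublets (0.125%) in library A, where it did not work as a filter, and 25 (1.16%) in library B, so doublets remain. The other 6128 nuclei were normalized to 10000 counts and clustered over 3000 variable genes, without the 9 and 46 genes, with 40 components, 20 neighbours and leiden resolution 1 (igraph 0.11.9). A cluster took a glial name with at least 3 of its 12 markers among its 25 leading genes, a rule widened from 10 after the data were seen to name the tanycyte cluster, or a neuron name with at least 6 of 12 neuron markers over 2-fold above the glia. Names mean neuron-like and so on.

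UMIs were summed per library and class, since nuclei are not replicates, and tested in edgeR 4.0.16 (R 4.3.3; quasi-likelihood, TMM, filterByExpr, library as block because each library gives every class). The fit was tested on simulated data, where most genes given a known change between OPCs and neurons were not called, so a gene not called may still differ. The simulated classes shared a common profile and a fixed spread, unlike these data, so the yield is no measure of power here. Tests cover all genes, and only the 9 members and the partner genes are printed, of these up to 4 per direction by p. Up to 3 genes of most like pattern are named for each member, and some are not reported here. Exact 95% intervals reflect counting error only, and 0 counts are given with the level of 3 UMIs. DESeq2 1.42.0 and the other alternatives are in the closing section.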

Additional observations from a re-analysis of the deposited data

How the results depend on the processing

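Among 535 values of single genes under alternatives, 475 counted as unchanged, 24 lost their call and 4 gained one. Of the rest, 29 without a test moved by more than the spread between libraries, and 3 turned round with a call in either fit. Tested values counted as unchanged on the same side of the threshold, so a change of sign without a call in either fit is among them. Values without a test counted as unchanged when they moved by no more than that spread. Without the replicate block, members lower in OPCs than in neurons numbered 2 (Pclo and Erc2) in place of 6. With only OPC nuclei that held no neuron marker UMI, 0 members in place of 1 were higher than in neurons and 4 in place of 7 were higher than in other glia, Pclo had a log2 difference of -0.26 against other glia, and Unc13b, with 0 UMIs there, had -10.42 against neurons, which passed, and -9.08 against other glia, which are no bounds. In that fit the median of all genes moved to -0.89 and -0.81, so values are to be read against it. With nuclei thinned to 500 UMIs, 4 members in place of 7 were higher in OPCs than in other glia. Between glutamatergic-marked and GABAergic-marked neurons, 0 members in place of 1 were higher with thinned nuclei, without the replicate block, in DESeq2 and without the cluster of highest Unc13c (this last setting was added once the data were known). The causes of these changes were not tested. The share of all genes called under these settings is not reported here, so the counts cannot be told apart from a change over all genes. Leaving out a library leaves values with no test: 1 to 2 members had a log2 difference over 0 between OPCs and neurons, where Unc13b had 0.37 without replicate 1 and -0.69 without replicate 2, and Unc13a -3.20 and -0.86. RLE size factors moved the median of all genes by under 0.1. The average of 4 glial classes applied only to comparisons with other glia, where Erc1 in OPCs had 2.86, a value set by microglia with 0 Erc1 UMIs and no bound. OPC nuclei number 134 and 72, so differences of genes with few UMIs there, such as Unc13a and Bsn, are not detectable at this depth unless large.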

Other observations

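The cluster left out of the classes, 46 and 22 nuclei led by oligodendrocyte genes, St18 among them, had all 12 neuron markers over 2-fold above the glia. Rims1 had 805 and 1114 CPM there and 885 and 947 CPM in neurons. Erc2 had 853 and 1133 CPM in the cluster and 932 and 1013 CPM in neurons, and Unc13c had 176 and 203 CPM in the cluster and 227 and 222 CPM in neurons. Nuclei of the cluster held a median of 3392 and 4938 UMIs, against 2256 and 2630.0 in neurons, and the part of doublets in it was not tested.

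Neurons with a UMI of neither transmitter marker, 1022 and 509 nuclei, had 233 and 271 CPM of Unc13c, against 279 and 338 CPM in glutamatergic-marked and 182 and 116 CPM in GABAergic-marked neurons. Their Rims1 level, 876 and 889 CPM, lay within the range of the marked groups in library A and below it in library B. Unc13b in OPC nuclei without a UMI of any neuron marker gave 0 UMIs in both libraries, while Bsn gave 1 and 3 UMIs and Unc13a 1 and 0 UMIs.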
